A study of Rattus norvegicus with 12 samples.

Results

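The 7 genes described here encode the subunits of respiratory complex I that are made from mitochondrial DNA: Nd1 (ENSRNOG00000030644), Nd2 (ENSRNOG00000031033), Nd3 (ENSRNOG00000033615), Nd4l (ENSRNOG00000031053), Nd4 (ENSRNOG00000029707), Nd5 (ENSRNOG00000029971) and Nd6 (ENSRNOG00000029042). They are 7 of the 32662 gene identifiers in the files and were chosen by identifier, with no threshold on a measured value. All 7 passed the filter on low counts, which left 13833 genes for testing. Expression was measured by sequencing of poly(A)-selected RNA from tissue captured by laser microdissection from 6 male Wistar Han rats aged 10 weeks. The rats were naive, that is, they received no treatment before the terminal anaesthesia with pentobarbital and lidocaine and the perfusion with cold saline that all of them shared, and they were kept with reversed day and night. From each rat 1 library came from the trigeminal nucleus caudalis (TNC), the brainstem relay for pain and temperature of the face, and 1 from the spinal cord's dorsal horn (SC), the corresponding relay for the body, so that 12 libraries formed 6 within-animal pairs. The rats are numbered R101 to R106 in the labels.

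Complex I is the first enzyme of the respiratory chain. It passes electrons from NADH to ubiquinone and pumps protons across the inner mitochondrial membrane. The subunits encoded in mitochondrial DNA form the core of its membrane arm, and the other subunits are imported from the cytoplasm. Nd1 lines the chamber in which ubiquinone binds. Nd2, Nd4 and Nd5 resemble antiporters and take part in proton pumping, and the small subunits Nd3, Nd4l and Nd6 lie between them and the ubiquinone chamber. Nd6 is encoded on the light strand of mitochondrial DNA and the other members on the heavy strand, whose long transcript is cut into separate messengers. Nd4l and Nd4 stay together on a shared messenger, and Nd5 and Nd6 are neighbours on opposite strands. Neurons rely heavily on oxidative phosphorylation, the pathway that complex I opens.

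Between 11223405 and 14591508 reads per library were assigned to genes. Of all alignments, a share of 14.5% to 15.7% in the SC libraries and of 12.5% to 15.2% in the TNC libraries lay outside annotated genes, with TNC lower in 6 of 6 rats. The TNC library of rat R102 held the highest share among the TNC libraries. The gene table at hand pairs 0 of the identifiers with a symbol, so the labelled tissues were not checked against marker genes. The other mitochondrially encoded genes and the subunits of complex I encoded in the nucleus were not analysed as lists. Where they passed the filter, they remain unnamed among the other genes tested, to which members are compared below. In bulk tissue, fewer cells of a type and less RNA per cell cannot be told apart.

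The balance of assigned reads among the ND genes differed between the regions more regularly than the level of these genes did. In every rat Nd5 took a smaller part of the reads on the 7 ND genes in TNC than in SC, Nd6 likewise, and Nd2 a larger part. The level of the ND genes in the whole library, in contrast, was higher in TNC in some rats and lower in others. Of the 7 members, 3 passed the test of the region difference, as did 30.3% of all genes tested (4192 of 13833). Nd2 was 1.16-fold higher in TNC, and Nd5 and Nd6 stood at 0.845 and 0.820 of their SC level. These 3 calls depended on the tool and on the rats included.

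Of the reads assigned to genes, the 7 ND genes together took 0.693% ± 0.0691 in SC and 0.741% ± 0.165 in TNC (SD, n = 6). In rats R101, R102 and R103 the share was 0.728%, 0.730% and 0.736% in SC and 0.810%, 0.928% and 0.901% in TNC. In rat R104 it was 0.582% in SC and 0.609% in TNC. In rats R105 and R106 it was 0.751% and 0.631% in SC and 0.683% and 0.517% in TNC. TNC was thus the higher region in 4 rats and the lower one in 2, and both the highest and the lowest value of all 12 libraries came from TNC. The mean within-rat difference of 0.0485 percentage points was smaller than its SD of 0.124. It was 0.0186 without rat R102, 0.0252 without R103 and 0.0808 without R106. Over rats R101 to R103 it was 0.148 and over rats R104 to R106 it was -0.0515 percentage points. Whether these sets of rats differ was not tested, and the labels give no batch that parts them. Counting error was small beside these differences, with a 95% Wilson interval of the share at most 0.0111 percentage points wide, which covers counting error only.

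The spread between rats was wider in TNC, where the SD of the ND share was 2.39 times that in SC. On the scale of log2 CPM (counts divided by library size, with libraries scaled by the trimmed mean of M values, TMM), the SD of Nd1 was 0.36 over the TNC libraries and 0.19 over the SC libraries. That of Nd2 was 0.36 in TNC and 0.15 in SC, and that of Nd5 was 0.34 and 0.13. Among the 2010 genes at or above 100 CPM on average, 98.7% had a smaller SD in TNC than Nd1 and 98.5% a smaller one than Nd5. In SC these shares were 95.7% for Nd1 and 78.1% for Nd5. The gap in SD was smaller for Nd3 (0.36 in TNC and 0.22 in SC) and Nd4 (0.45 and 0.34). For Nd4 the share of genes with a smaller SD was 99.3% in TNC and 99.55% in SC. The percentage of alignments outside annotated genes also had a wider SD in TNC, 1.03 against 0.489 points. How many of all genes had a wider SD in TNC was not counted. Nd1, Nd2, Nd5 and Nd6 are themselves among these 2010 genes, and the spread was compared by description only.

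**Figure D1:**
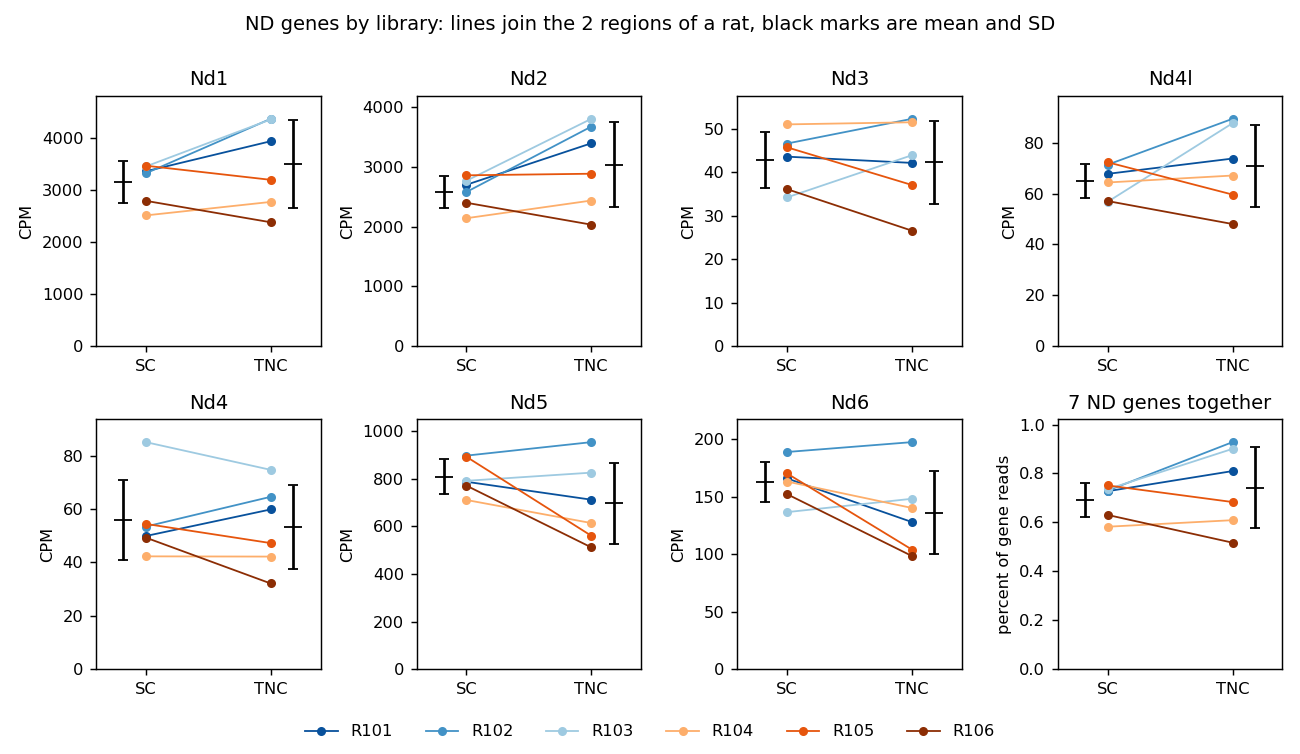
CPM of each ND gene, and in the last panel the percent of gene reads on all 7, in SC and TNC; each line joins the libraries of 1 rat, and black marks give the mean and SD of 6 libraries. The lines of R101, R102 and R103 for Nd1 and Nd2 run upward to TNC and those of R106 run downward for all 7 genes.

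Nd1, the subunit at the ubiquinone chamber, had 3146 CPM on average in SC. Its lowest, median and highest values were 2507, 3336 and 3462 CPM in SC and 2375, 3562 and 4363 CPM in TNC. The TNC range enclosed the SC range. Nd1 was higher in TNC in 4 of 6 rats, with a log2 fold change of 0.13 (SE 0.10 across the within-rat differences). The adjusted p was 0.168 (edgeR quasi-likelihood test, rat as block, Benjamini-Hochberg adjustment across all genes tested). The 95% interval from limma voom ran from 0.998-fold to 1.20-fold. As limma voom draws information on spread from other genes, its intervals can be narrower than the within-rat differences alone would give. Nd1 did pass the test in rats R101 to R103 alone (log2 fold change 0.32, adjusted p = 4.318e-04, edgeR) and without rat R106 (0.20, adjusted p = 0.0256, edgeR).

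Among the antiporter-like subunits, Nd2 was called higher and Nd5 lower in TNC, though neither moved the same way in all 6 rats. Nd2 had a lowest, median and highest value of 2141, 2641 and 2860 CPM in SC and of 2033, 3141 and 3807 CPM in TNC. The regions overlapped, though the TNC libraries of rats R101, R102, R103 and R105 lay above all SC libraries. Its log2 fold change was 0.21 (SE 0.12, adjusted p = 0.0356, edgeR), and Nd2 was higher in TNC in 5 of 6 rats. The TNC minus SC difference of log2 CPM was 0.33, 0.51, 0.46 and 0.19 in rats R101 to R104. It was 0.013 in rat R105 and -0.24 in rat R106. Its interval ran from 1.05-fold to 1.29-fold (limma voom).

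Nd5 had a lowest, median and highest value of 710.7, 789 and 897 CPM in SC and of 512, 663 and 954 CPM in TNC. The highest value of all belonged to the TNC library of rat R102 and the lowest to that of rat R106, so the regions overlapped. Its log2 fold change was -0.24 (SE 0.13, adjusted p = 0.0280, edgeR), and Nd5 was lower in TNC in 4 of 6 rats. Its interval ran from 0.754-fold to 0.952-fold (limma voom). The TNC minus SC difference of log2 CPM was largest in size in rats R105 and R106, at -0.67 and -0.59. It was -0.14 in rat R101 and -0.21 in rat R104, and 0.088 and 0.061 in rats R102 and R103.

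Nd4, the third antiporter-like subunit, had few reads, between 389 and 988 per library. Its CPM ranged from 42.3 to 85.0 in SC and from 32.1 to 74.6 in TNC. The SC library of rat R103 held the value of 85.0 CPM, and the other SC libraries lay between 42.3 and 54.4. Its log2 fold change was -0.069 (SE 0.14, adjusted p = 0.627, edgeR), and the interval ran from 0.830-fold to 1.10-fold. In 11 of the 12 libraries Nd4 had fewer reads than Nd4l, with which it shares a messenger and whose reading frame is much the shorter. The exception was the SC library of rat R103, with 988 reads of Nd4 and 660 of Nd4l. Reads that align to several places are listed apart in the files and enter no gene. Their share of alignments was lower in TNC in all 6 rats (difference -0.597 percentage points, SD 0.271), and how many of them came from ND genes was not analysed here. The Nd4 values therefore describe the reads assigned to this identifier and not the amount of its messenger. As reads that align to several places enter no gene, the counts and shares of the other members have the same limit. The lengths of the genes were not used here, so levels are not compared between members.

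Among the small subunits Nd6 was called lower in TNC, and Nd3 and Nd4l did not pass the test. Nd6 had a lowest, median and highest value of 136, 164 and 189 CPM in SC and of 98.4, 134 and 197 CPM in TNC. The TNC libraries of rats R105 and R106 were the lowest of the 12, and that of rat R102 was the highest of all. Its log2 fold change was -0.29 (SE 0.14, adjusted p = 0.0200, edgeR), and Nd6 was lower in TNC in 4 of 6 rats. The sources used here do not say whether the counting used strand. Reads of Nd6 and antisense reads from the Nd5 side can therefore not be told apart, and the messenger of Nd6 is known from human cells to lack a stable poly(A) tail.

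Nd3 ranged from 34.2 to 51.1 CPM in SC and from 26.6 to 52.4 CPM in TNC. It was higher in TNC in 3 rats and lower in 3, with a log2 fold change of -0.036 and an interval from 0.852-fold to 1.12-fold (adjusted p = 0.807, edgeR). Nd4l ranged from 56.8 to 72.4 CPM in SC and from 48.0 to 89.5 CPM in TNC. It was higher in TNC in 4 of 6 rats, with a log2 fold change of 0.11 and an interval from 0.939-fold to 1.24-fold (adjusted p = 0.422, edgeR). Both intervals are from limma voom and are no bounds from the 6 rats alone. The SE across the within-rat differences of log2 CPM was 0.12 for Nd3 and 0.14 for Nd4l.

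The 3 calls among 7 members stand against 4192 calls among all 13833 genes tested, or 30.3%. In the separate directions, 1 of 7 members was called higher in TNC, against 15.0% of all genes, and 2 of 7 lower, against 15.3%. The median log2 fold change was -0.036 over the 7 members and -0.0053 over all genes tested. The CPM ranges of the regions did not overlap for 0 of the 7 members, against 10.6% of all genes. None (0) of the members moved the same way in all 6 rats, against 27.0% of all genes. For Nd2, Nd5 and Nd6 the SD of the within-rat differences, 0.29, 0.32 and 0.34 in log2 CPM, exceeded the mean difference. An exact two-sided sign-flip permutation test of the 6 within-rat differences of log2 CPM, run on each of the 7 members, gave p = 0.156 for Nd2, 0.156 for Nd5 and 0.125 for Nd6, unadjusted. The smallest p it allows is 0.03125. Unlike edgeR and limma voom, this test draws no information on spread from other genes.

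The direction of the region difference was shared by most members in some rats and split among them in others. In rats R101, R102 and R103, 17 of the 21 values of the 7 members were higher in TNC, and in rats R105 and R106, 13 of 14 were lower. Rat R104 had 4 members higher and 3 lower, and so did rat R101 within the first set, where Nd3, Nd5 and Nd6 were lower in TNC. The rats are grouped here by the direction seen, so agreement within these groups is partly built in. The members of a library are not replicates, and the same count over all genes was not made. Fitted alone, rats R101 to R103 gave log2 fold changes of 0.43 for Nd2 (adjusted p = 3.303e-05, edgeR) and 0.35 for Nd4l (adjusted p = 0.0249, edgeR), with Nd5 at -6.87e-05 and Nd6 at -0.066 and neither of these called. In that fit 16.6% of all genes tested were called. Fitted alone, rats R104 to R106 gave -0.48 for Nd5 (adjusted p = 1.428e-04, edgeR) and -0.51 for Nd6 (adjusted p = 3.45e-04, edgeR), with Nd2 at -0.0059 and not called, and 20.4% of all genes tested (2845) were called. With DESeq2, and without the rat as a block, none (0) of the 7 members was called, against 28.5% and 26.2% of all genes tested (3945 and 3627 genes). In DESeq2 the adjusted p was 0.245 for Nd2, 0.127 for Nd5 and 0.109 for Nd6, and 2 members, Nd5 and Nd6, had an unadjusted p under 0.05. In edgeR without the block 0 members did, and in limma voom with the rat in the model 3 were called, Nd2, Nd5 and Nd6 (29.4% of all genes). Without rat R102, whose TNC library stood apart in reads outside genes, Nd5 and Nd6 were called and Nd2 was not (log2 fold change 0.15, adjusted p = 0.146, edgeR), with 28.9% of all genes called.

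Other library measures moved with region as well, each lower in TNC in all 6 rats. Alignments to several places averaged 13.6% in SC and 13.0% in TNC, alignments with an ambiguous gene 1.67% and 1.55%, and genes detected 17340 and 16869. Their part in the ND differences was not tested. The share of reads outside annotated genes was entered into the fit. The TNC minus SC difference of this share was -1.95, -0.467 and -2.25 percentage points in rats R101, R102 and R103, and -1.89, -2.32 and -2.15 points in rats R104, R105 and R106. The ND share in TNC stood at 1.11, 1.27 and 1.22 of that in SC in rats R101, R102 and R103. In rats R104, R105 and R106 it stood at 1.05, 0.910 and 0.820. Whether these folds follow the gaps over the rats was not tested. With this share as a covariate beside the rat, Nd5 and Nd6 turned to 0.24 and 0.19, Nd2 stood at 0.62, and no member (0) was called by edgeR, with Nd1 and Nd2, 2 members, at an unadjusted p under 0.05. Region and covariate were nearly collinear in this fit, in which 64 genes (0.463% of those tested) were called, and the part of these reads in the ND differences was not tested otherwise.

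**Figure D2:**
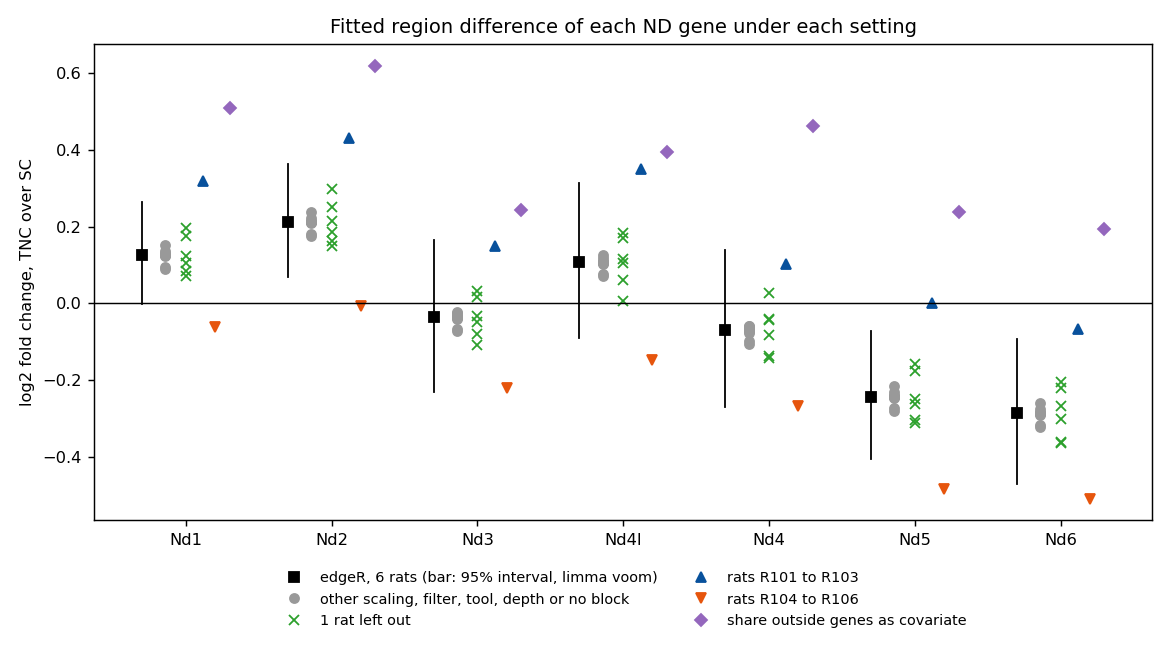
Fitted log2 fold change (TNC over SC) of each ND gene under each setting; black squares are the edgeR fit on 6 rats with the 95% interval from limma voom, and other marks are the alternatives named in the key. For Nd2 the fit on R104 to R106 lies at -0.0059 and that on R101 to R103 at 0.43, and the covariate fit lies above 0 for all 7 genes.

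Ratios among the ND genes within a library need no scaling between libraries, and they are given as descriptions with no test. Nd1 and Nd2 together took between 81.8% and 88.3% of the reads on the 7 genes, and Nd3, Nd4l and Nd4 together between 2.08% and 2.78%. These are shares of assigned reads, without the reads that align to several places, and no gene length enters them.

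Nd5 took 10.98%, 12.5%, 10.8%, 12.5%, 11.8% and 12.3% of the ND reads in the SC libraries of rats R101 to R106. In the TNC libraries of the same rats it took 8.53%, 10.1%, 8.84%, 10.03%, 8.14% and 9.98%. The lowest SC value of 10.8% lay above the highest TNC value of 10.1%, so the regions did not overlap. The within-rat difference was -2.55 percentage points with an SD of 0.577 (n = 6), more than the spread between rats, and ranged from -3.67 in rat R105 to -1.97 in rat R103.

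Nd2 took 37.7%, 36.1%, 37.8%, 37.7%, 37.8% and 38.4% of the ND reads in SC and 40.7%, 39.1%, 40.8%, 39.8%, 41.9% and 39.7% in TNC, in the same order of rats. Here too the regions did not overlap, and TNC was higher in 6 of 6 rats. The within-rat difference was 2.75 percentage points with an SD of 0.948. Nd6 took 2.39% ± 0.345 in SC and 1.82% ± 0.329 in TNC (SD, n = 6). Its share was lower in TNC in all 6 rats, with overlapping ranges and a within-rat difference of -0.572 percentage points (SD 0.180). The share of Nd1 averaged 45.8% in SC and 46.3% in TNC, and that of Nd4l 0.954% and 0.946%, each closer between regions than the SD of its within-rat differences. The share was higher in TNC in 5 of 6 rats for Nd1 and in 2 of 6 for Nd4l. Nd3 took 0.635% in SC and 0.572% in TNC, a within-rat difference of -0.0630 points (SD 0.0376), and Nd4 took 0.809% and 0.701%, a difference of -0.108 points (SD 0.138). Both were lower in TNC in 5 of 6 rats.

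For comparison, the ratio of a gene's reads to those of the 7 ND genes kept the regions apart for 3.02% of the 13826 other genes tested and moved the same way in all 6 rats for 15.2% of them. Of the 7 members, whose own reads are part of that sum, the shares of Nd2 and Nd5 kept the regions apart and those of Nd2, Nd5 and Nd6 moved the same way in all 6 rats. The comparison is uneven. Shares among members cancel the spread between rats that the ND genes have in common. The ratio of a gene that does not vary with them carries that spread in full, which lowers the shares of other genes. By CPM these shares were 10.6% and 27.0% over all genes. A share that grows lowers the others by arithmetic, so the 3 differences are not independent. As each of the 3 had the same direction in all 6 rats, no set of these rats could reverse it, and only the sizes could differ. For Nd2, Nd5 and Nd6 the sizes were 3.01, -2.27 and -0.532 percentage points in rats R101 to R103 alone. In rats R104 to R106 alone they were 2.50, -2.83 and -0.611.

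**Figure D3:**
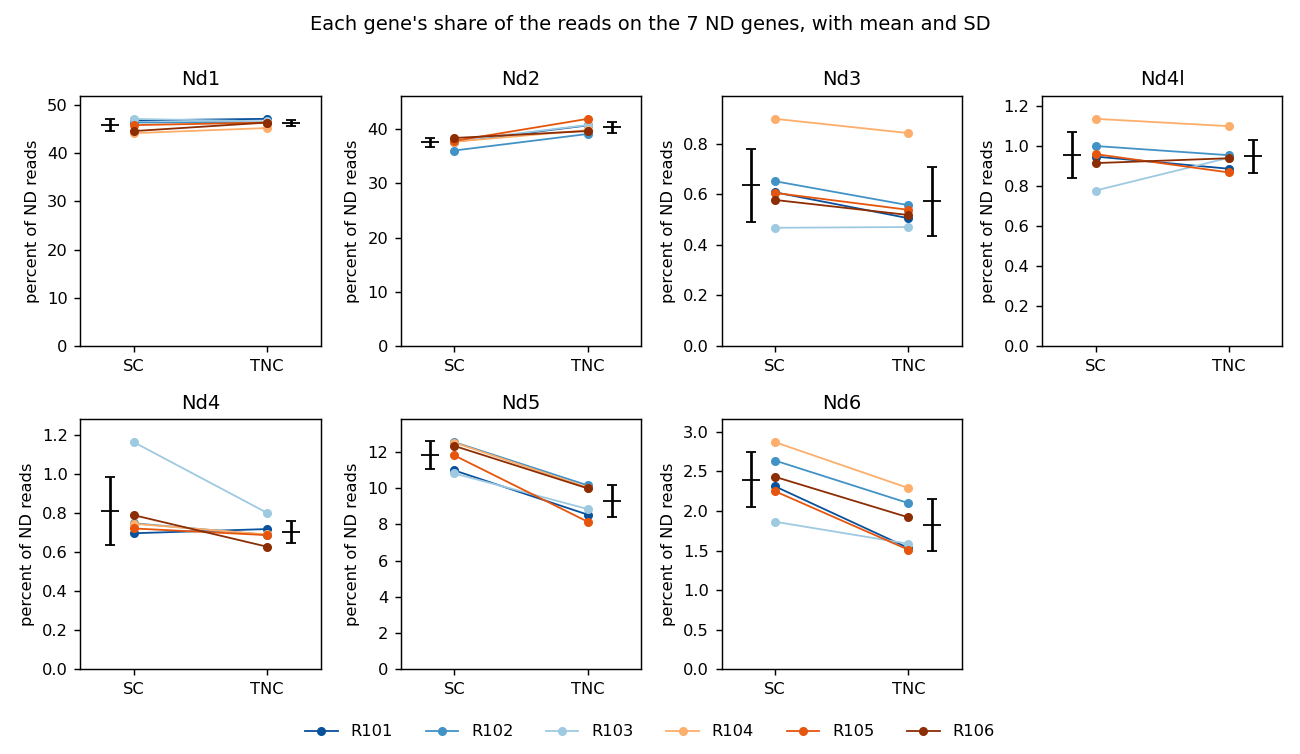
Percent of the reads on the 7 ND genes that each gene took in SC and TNC; lines join the libraries of 1 rat, and black marks give the mean and SD of 6 libraries. All 6 lines of Nd5 and Nd6 run downward to TNC and all 6 of Nd2 run upward, and those of Nd1 and Nd4l cross.

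Ratios of single members to Nd1, chosen as the reference after the data were seen, were lower in TNC for 5 of the other 6 members on average. Nd5 had 0.259 ± 0.0224 reads per read of Nd1 in SC and 0.200 ± 0.0206 in TNC (SD, n = 6). The log2 difference was -0.37 (SE 0.040). The ratio ran from 0.230 to 0.283 in SC and from 0.176 to 0.222 in TNC, without overlap, which held for the ratio to Nd1 of 2.81% of the other genes. In the direction lower in TNC the share of other genes was 2.56%. The ratio of Nd6 to Nd1 was 0.0524 ± 0.00858 in SC and 0.0394 ± 0.00758 in TNC, again lower in TNC in all 6 rats (log2 difference -0.42, SE 0.062). A ratio to Nd1 moved the same way in all rats for 17.2% of the other genes. The shares of other genes for ratios to Nd1 have the limit given above for ratios to the ND reads. The log2 difference of the ratio to Nd1 was -0.17 (SE 0.044) for Nd3 and -0.21 (SE 0.085) for Nd4, each lower in TNC in 5 of 6 rats, and -0.024 (SE 0.066) for Nd4l.

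Nd5 and Nd6 kept close to each other. The ratio of Nd6 to Nd5 was 0.202 ± 0.0196 in SC and 0.195 ± 0.0191 in TNC, a log2 difference of -0.047 (SE 0.039). Nd2 and Nd1 also kept close, with a ratio of 0.821 ± 0.0320 in SC and 0.870 ± 0.0216 in TNC and a log2 difference of 0.085 (SE 0.022), higher in TNC in 5 of 6 rats. The SD of the log2 ratio of Nd2 to Nd1 was 0.036 over the TNC libraries, against 0.36 for the log2 CPM of either gene alone. Of the 21 pairs of members, which share members, 4 had ratios whose ranges did not overlap between the regions. These 4 were the ratios of Nd5 to Nd1, to Nd2 and to Nd4l, and that of Nd6 to Nd4l. Of the other genes, 4.04% had such a ratio to Nd2 and 3.28% to Nd4l, with the same limit on the comparison. The ratio of Nd6 to Nd4l was 2.51 ± 0.129 in SC and 1.92 ± 0.222 in TNC.

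**Figure D4:**
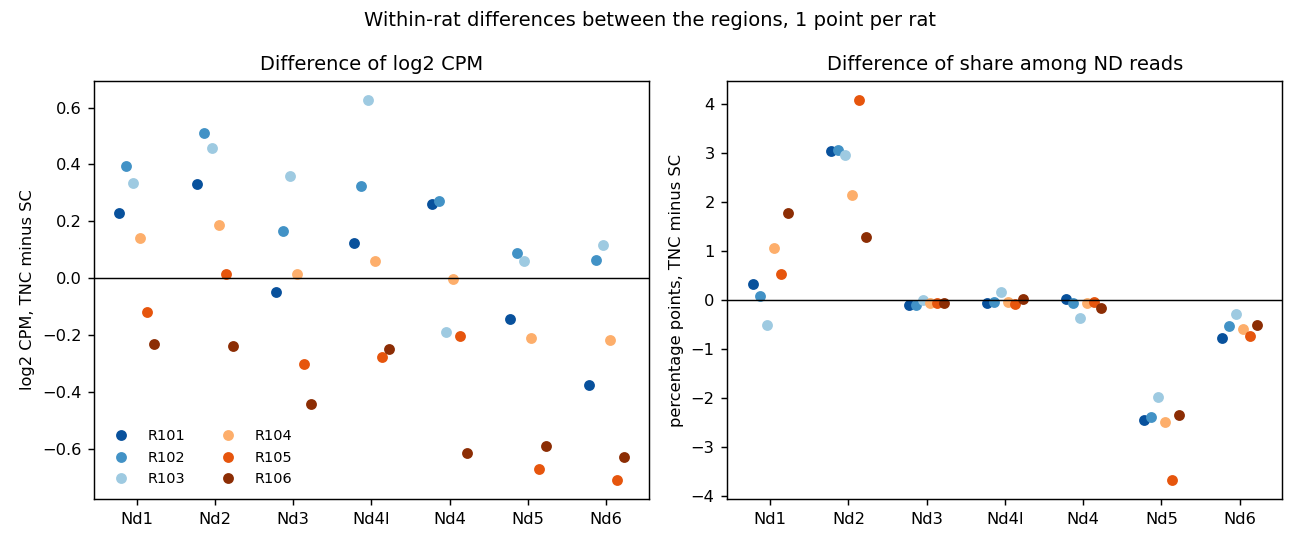
Within-rat differences between the regions (TNC minus SC) for each ND gene, 1 point per rat: left, in log2 CPM; right, in percentage points of the reads on the 7 ND genes. On the left every gene has points on both sides of 0, and on the right all 6 points of Nd2 lie above 0 and all 6 of Nd5 and of Nd6 below it.

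The genes whose pattern across libraries was most like that of the ND genes were sought among the 9533 other genes that averaged 10 CPM or more. The measure was Pearson's r between log2 CPM and the log2 CPM of the summed ND reads over the 12 libraries, after removal of each region's mean. The 12 libraries come from 6 rats and share their scaling, and the values are a description. ENSRNOG00000031979 had r = 0.990 and ENSRNOG00000030700 had r = 0.981. Their mean level did not part the regions: ENSRNOG00000031979 had 6747 ± 689 CPM in SC and 6859 ± 1482 in TNC, and ENSRNOG00000030700 had 7732 ± 642 and 7876 ± 1686 (SD, n = 6), with SDs that were wider in TNC, as for the ND genes. The most opposite patterns were those of ENSRNOG00000054775, with r = -0.955, and ENSRNOG00000001874, with r = -0.946. The level of ENSRNOG00000054775 was 37.5 ± 2.73 CPM in SC and 36.6 ± 4.67 in TNC, and that of ENSRNOG00000001874 was 28.0 ± 2.18 and 24.2 ± 4.40. The files pair none of these identifiers with a symbol, so whether any of these genes is mitochondrially encoded was not determined.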

How the data were processed

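The deposited files, 1 per library, hold raw counts of reads per Ensembl rat gene identifier. HTSeq's summary lines entered neither library sizes nor tests. The submitters' processing notes name STAR, an aligner, and HTSeq, a read counter. Versions, settings, strand option, annotation and genome build: not given in the sources used here. The members' names come from the rule that chose them. Members, lists and alternatives were chosen with earlier results of these data known.

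Genes were filtered with filterByExpr (minimum count 10), scaled by TMM and tested with edgeR's quasi-likelihood test on rat plus region over 12 libraries (5 residual degrees of freedom, adjusted p threshold 0.05). Log2 CPM used a prior count of 2. Both regions came from each rat, and deviations from the region means correlated between 0.142 and 0.195 within rats and at most 0.0491 between rats. Tests were checked on simulated counts. All 7 members were named, with the 2 genes of highest and the 2 of lowest correlation. Lists that need symbols were not run. Alternatives were RLE, upper-quartile and no scaling, scaling from other genes, other filters, DESeq2, limma voom, no block, thinning, a covariate, sets of 3 rats, each rat left out, other denominators and, added after seeing the data, ratios to Nd1. Versions were DESeq2 1.42.0, limma 3.58.1, edgeR 4.0.16 and R 4.3.3.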

Additional observations from a re-analysis of the deposited data

Results flagged for a closer look

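Of 44 groups of 6 values searched for a single distant library or rat, 6 held one. By chance about 5% of groups would, and these groups share data. In the SC library of rat R103 Nd4 reached 85.0 CPM, with 42.3 to 54.4 in the other SC libraries, and 1.16% of the ND reads, with 0.695% to 0.788% in the others. In the SC library of rat R102 Nd2 took 36.1% of the ND reads, with 37.7% to 38.4% in the other SC libraries. In the TNC library of rat R104 Nd3 took 0.843% of the ND reads, with 0.471% to 0.557% in the other TNC libraries, and Nd4l took 1.097%, with 0.866% to 0.952%. The share of Nd5 among the ND reads fell short of SC by the widest margin in rat R105, where the difference was -3.67 percentage points (other rats -2.48 to -1.97).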

How the results depend on the processing

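The members' log2 fold changes were fitted under 19 alternatives. Nd5 and Nd6 each passed the threshold in 12 of them, Nd2 in 9, Nd1 in 2, Nd4l in 1, and Nd3 and Nd4 in none (0). Adjusted p ranged from 3.303e-05 to 0.969 for Nd2, from 1.428e-04 to 0.9995 for Nd5 and from 3.45e-04 to 0.873 for Nd6. Nd2 lost its call with upper-quartile scaling (0.18), no scaling factor (0.17) and DESeq2 (0.21), and Nd5 and Nd6 with DESeq2 (-0.24 and -0.29). The median log2 fold change of all genes tested was -0.036 with upper-quartile scaling and -0.041 with no scaling factor, against -0.0053 in the main fit. With no replicate block Nd2 (0.24), Nd5 (-0.22) and Nd6 (-0.26) lost their calls. With a rat left out the log2 fold change ranged from 0.15 to 0.30 for Nd2 (called without R105 and without R106 alone), from -0.31 to -0.16 for Nd5 (not called without R104, R105 or R106), from -0.36 to -0.20 for Nd6 (not called without R101, R105 or R106), from 0.072 to 0.20 for Nd1, from 0.0054 to 0.18 for Nd4l, from -0.11 to 0.033 for Nd3 and from -0.14 to 0.026 for Nd4. Rats R101 to R103 alone, with the replicate block, gave 0.32 for Nd1, 0.35 for Nd4l, 0.15 for Nd3, 0.10 for Nd4, -6.87e-05 for Nd5 and -0.066 for Nd6. Rats R104 to R106 alone gave -0.062 for Nd1, -0.0059 for Nd2 and -0.15 for Nd4l. The covariate fit with the replicate block gave 0.62 for Nd2, 0.24 for Nd3, 0.46 for Nd4, 0.24 for Nd5 and 0.19 for Nd6. As a ratio to Nd1, Nd4l stood at -0.024. The causes were not tested. Over all genes, 2311 (1113 higher and 1198 lower in TNC) differed in rats R101 to R103 and 64 in the covariate fit, against 4192. With all alignments as the denominator the ND share was 0.483% in SC and 0.535% in TNC. With the other 6 ND genes as the denominator the differences of Nd1, Nd2 and Nd5 were 1.82, 7.42 and -3.19 percentage points, with unchanged direction. Of 93 alternative values of the shares, the other 88 moved by less than 1 SD, a wide bound for the difference in the ND share: against 0.0485 percentage points it was 0.0186 without R102, 0.0252 without R103, 0.0808 without R106, and -0.0515 in rats R104 to R106. The difference in the share of Nd1 was -0.031 in rats R101 to R103, against 0.546.  The differences in the shares of Nd2, Nd5 and Nd6 kept their direction in every set of rats run, which was fixed in advance because each single rat had that direction. Upper-quartile scaling split the calls over all genes into 1754 higher and 2432 lower in TNC, and no scaling factor into 1662 and 2476.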
